A study of Mus musculus with 2 samples.

Results

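Transcripts that make up the mast cell programme were read from single CD45-positive cells of the aortic adventitia, the outer coat of the vessel. They are the 7 genes Mcpt4, Cma1, Cpa3, Tpsb2, Fcer1a, Ms4a2 and Hdc, taken by gene symbol from the 55386 features of the count matrices, and each was present in both libraries. The rule itself uses no measured value. All mice carried RankCre and Rosa26eYFP, so that Cre made from the Rank gene switches on a yellow fluorescent reporter that descendants of the labelled cells keep, and all were 16 weeks old. The steady state library pooled the cells of 3 untreated animals. The AngII library pooled the cells of 2 animals that had received angiotensin II at 1.8 µg/kg/min for 10 days. There was 1 droplet library (10x 3′) per condition, so differences between conditions have no replicate check, cannot be told apart from differences between libraries, and carry no p-value.

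Mast cells are long-lived tissue leukocytes that mature in place under the growth factor receptor Kit and store their effectors in granules. Connective tissue mast cells of the mouse fill these granules with chymases, tryptases and carboxypeptidase A on a proteoglycan scaffold, together with histamine. IgE bound to the high-affinity receptor FcεRI, made of an α chain, a β chain and a signalling γ chain, triggers their release, and mast cell chymases can convert angiotensin I to angiotensin II.

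Mcpt4 (ENSMUSG00000061068.7) and Cma1 (ENSMUSG00000022225.7), the chymases mouse mast cell protease 4 and 5, lie 114954 bases apart in the chymase locus of chromosome 14, at 56059629 to 56062313 and at 55941451 to 55944675. Cpa3 (ENSMUSG00000001865.2, chromosome 3, 20215620 to 20242181) encodes mast cell carboxypeptidase A. Tpsb2 (ENSMUSG00000033825.10, chromosome 17, 25366305 to 25369098) encodes the tryptase mouse mast cell protease 6. Fcer1a (ENSMUSG00000005339.10, chromosome 1, 173221284 to 173227214) encodes the IgE-binding α chain of FcεRI, and Ms4a2 (ENSMUSG00000024680.12, chromosome 19, 11615523 to 11623719) its β chain, which amplifies the signal. Hdc (ENSMUSG00000027360.5, chromosome 2, 126593667 to 126619299) encodes histidine decarboxylase, the enzyme that makes histamine. Coordinates are those of GENCODE M21 on GRCm38, and 6 of the 7 genes are on the minus strand, Tpsb2 being on the plus strand.

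As most of these genes were found in the same few cells, the bases upstream of their RefSeq transcription starts are shown for 4 members whose RefSeq and GENCODE starts lie together. GATA2 is a transcription factor needed by mast cells, and the hexamers AGATAA and TGATAA, both of the GATA kind, were searched on both strands and are printed in capitals. Each run is 250 bases of GRCm38.p6, 5′ to 3′ on the minus strand, ending at the base before the start: Mcpt4 chr14:56062311-56062560, Cma1 chr14:55944676-55944925, Cpa3 chr3:20242182-20242431 and Ms4a2 chr19:11623720-11623969.
Mcpt4: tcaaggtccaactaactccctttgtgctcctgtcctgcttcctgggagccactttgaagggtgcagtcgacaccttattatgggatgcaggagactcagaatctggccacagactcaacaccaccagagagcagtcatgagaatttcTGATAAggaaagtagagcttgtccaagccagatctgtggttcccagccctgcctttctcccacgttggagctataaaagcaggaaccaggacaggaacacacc
Cma1: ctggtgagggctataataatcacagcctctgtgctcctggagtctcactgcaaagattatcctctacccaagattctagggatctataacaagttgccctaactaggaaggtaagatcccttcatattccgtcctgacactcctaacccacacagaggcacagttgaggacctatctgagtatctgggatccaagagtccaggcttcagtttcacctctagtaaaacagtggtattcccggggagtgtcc
Cpa3: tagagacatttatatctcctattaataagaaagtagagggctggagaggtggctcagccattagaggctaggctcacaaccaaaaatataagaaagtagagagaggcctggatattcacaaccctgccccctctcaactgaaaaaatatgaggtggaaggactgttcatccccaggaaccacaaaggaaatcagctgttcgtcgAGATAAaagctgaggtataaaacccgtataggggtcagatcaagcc
Ms4a2: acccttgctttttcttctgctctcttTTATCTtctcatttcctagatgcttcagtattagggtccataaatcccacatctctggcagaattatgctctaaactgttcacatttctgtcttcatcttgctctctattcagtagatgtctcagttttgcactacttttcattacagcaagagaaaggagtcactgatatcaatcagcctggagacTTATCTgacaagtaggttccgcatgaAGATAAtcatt
In windows from 250 bases before to 50 after the start, a GATA hexamer began 103 bases before the start of Mcpt4, 46 before that of Cpa3, 92 before that of Fcer1a, and 224, 37 and 11 before that of Ms4a2. Cma1 and Hdc held neither AGATAA nor TGATAA in these windows, and other hexamers of the GATA kind were not searched. Of 32851 RefSeq promoters of that length, 18.6% held either hexamer. CACATG, one of 2 E-box hexamers searched beside CACGTG, was found in Fcer1a alone, 208 bases before its start, and 20.4% of all promoters held either. RefSeq promoters matched 6 of the 7 members, and Tpsb2 was not among them. A match is a description of the letters, not a bound site.

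The deposited matrices held 346 barcodes at steady state and 4419 on AngII, with no barcode in common. Cells had to show between 300 and 6500 genes and no more than 5% mitochondrial counts. This left 306 at steady state with a median of 9105 unique molecular identifiers (UMIs) and 4198 on AngII with a median of 1092. Of the AngII cells, 45.5% had fewer than 1000 UMIs, against 0.980% at steady state. Levels are given as CPM, that is, UMIs of a gene added over the cells of a class and scaled to 1000000 UMIs of that class. Each molecule is counted once at its 3′ end, so gene length does not enter. Intervals are exact at the 95% level (Poisson for CPM, Clopper-Pearson for shares) and cover counting error only.

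Cells were placed in classes by marker genes that included no member. A cell was called mast-like when its UMIs of Kit, Gata2, Slc18a2, Cyp11a1, Mrgprb1, Mrgprb2, Slc45a3, Rab27b, Tph1 and Rgs13 exceeded expectation by more than those of 12 other lists did, with at least 2 different markers found. At steady state 9 of 306 cells were mast-like (2.94%, 1.35 to 5.51), and on AngII 11 of 4198 (0.262%, 0.131 to 0.468). The animals pooled were 3 and 2. Ptprc, which encodes CD45, was found in 7 of the 9 and in 8 of the 11. No cell of either library was basophil-like, and the basophil protease Mcpt8 had 0 UMIs in both libraries.

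Each of the 9 mast-like cells at steady state held 8 to 10 of the 10 gate markers and UMIs of all 7 members. Their depth ran from 1860 to 17013 UMIs with a median of 4327. The members took 4.29% to 22.3% of the UMIs of a cell, with a median of 15.3%. Other markers were found too. Of the 9 cells 2 also passed the gate of another class, and 3 held at least 2 macrophage markers, among them a cell of 11500 UMIs, with 661 of the members and 193 of macrophage markers. A cell of 9977 UMIs held 3 of the 4 basophil markers and 46 of the 112 Hdc UMIs of the class. Doublets were not removed.

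The 11 mast-like cells on AngII were mixed. Only 4 held all 7 members, and 5 had no more than the 2 markers the gate asked for. A median of 828 UMIs made most of them shallow. The members took a median of 4.60% of their UMIs, with a range from 0% to 34.2%. The 3 cells with the most member UMIs, of 4896, 4835 and 3493 UMIs in all, held 92.5% of the member UMIs of the class. At the other end, 2 cells of 828 and 822 UMIs held a single Cma1 UMI each, with 2 gate markers beside 6 macrophage markers. Another cell, of 16991 UMIs, held no member and 3 dendritic cell markers, although 2 gate markers had put it in the class. Of the 11 cells 4 also passed the gate of another class. For each of the 7 members, the AngII level is therefore also given in the 6 cells with at least 3 gate markers.

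**Figure D1:**
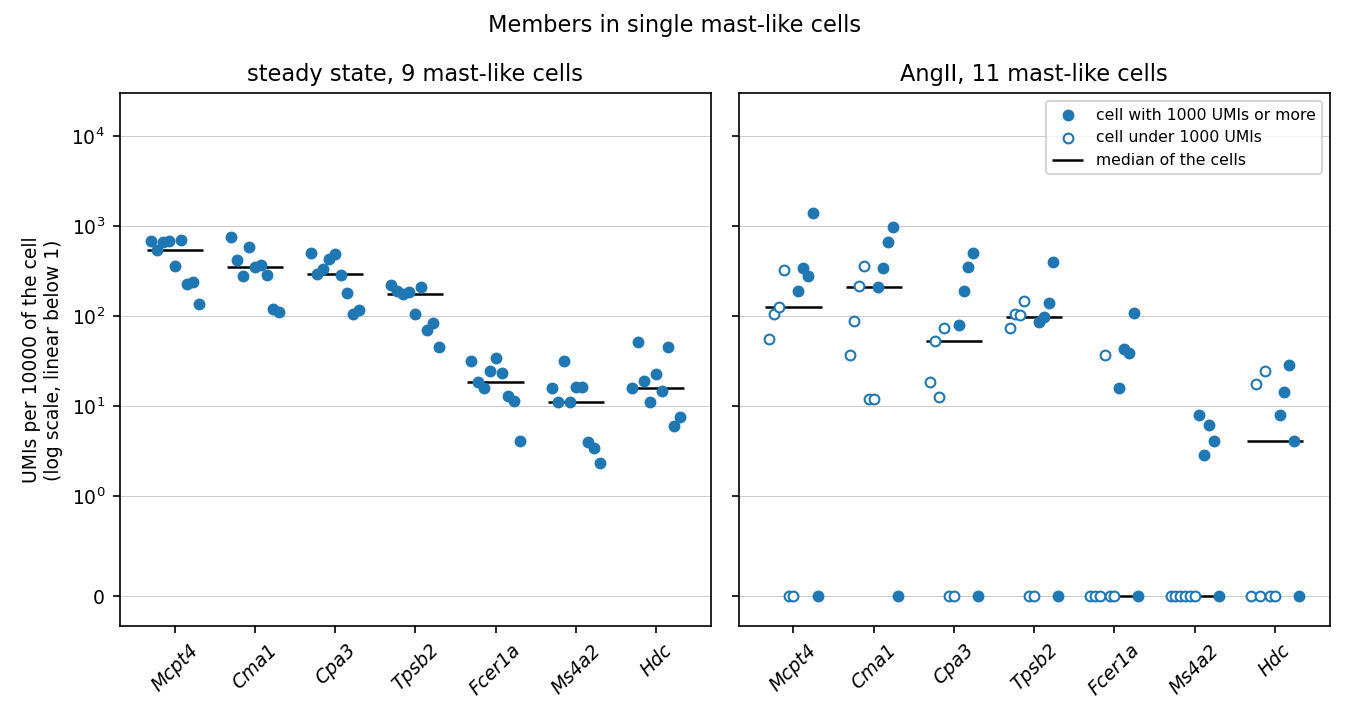
UMIs per 10000 of the cell (logarithmic axis, linear below 1) for each of the 7 members in every mast-like cell, steady state left and AngII right. Points are cells ordered from shallow to deep within a gene, open points are cells under 1000 UMIs, and black lines are medians over cells. All 9 steady state cells lie above 0 for every member, while AngII cells reach from 0 to 1417 per 10000 for Mcpt4.

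The chymases stood highest. Mcpt4 reached 34087 CPM (32627 to 35595) in mast-like cells at steady state, that is 2051 UMIs, and a single cell held from 138 to 699 UMIs per 10000 with a median of 548. Cma1 followed at 25794 CPM (24526 to 27110), from 113 to 758 per 10000 with a median of 354. Mcpt4 was above Cma1 in 7 of the 9 cells, with 1.32 times the UMIs (1.24 to 1.41). On AngII Mcpt4 stood at 28457 CPM (26736 to 30259) and Cma1 at 28010 (26303 to 29798). Their order was not settled there, since Mcpt4 was the higher in 4 of 11 cells, Cma1 in 6, and they were equal in 1. The tie was the cell without any member, and the 2 cells with a single Cma1 UMI were among the 6. A single cell held 68.1% of the Mcpt4 UMIs of the class, 694 of 1019, beside 481 of the 1003 Cma1 UMIs. Without that cell Mcpt4 had 0.623 times (0.540 to 0.716) the UMIs of Cma1.

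Cpa3, the carboxypeptidase, stood at 22071 CPM (20900 to 23291) at steady state and at 14103 CPM (12899 to 15388) on AngII, or 32130 CPM (29359 to 35092) in the 6 AngII cells with at least 3 markers. It was thus below or above steady state according to the gate. Single cells held at least 106 UMIs per 10000 at steady state, and between 0 and 500.4 on AngII. It was below Cma1 in 6 of 9 and in 10 of 11 cells, with 1 tie, so that this order held in most AngII cells and was mixed at steady state. The tie was the cell without any member, and 2 of the 10 held a single Cma1 UMI and no Cpa3. The tryptase Tpsb2 was the lowest of the proteases in UMIs, at 10570 CPM (9764 to 11424) and 9495 CPM (8512 to 10560), or 21138 CPM (18902 to 23566) in the 6 AngII cells. At steady state Cpa3 was above Tpsb2 in all 9 cells, by 2.09 times (1.90 to 2.30). On AngII Cpa3 was above in 3 cells and below in 5, and 3 cells held neither. The summed UMIs still favoured Cpa3 by 1.49 times (1.29 to 1.71).

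The IgE receptor chains were far less abundant than the proteases. Fcer1a stood at 1446 CPM (1158 to 1784) at steady state, with 5 to 15 UMIs in each of the 9 cells, and at 2569 CPM (2071 to 3151) on AngII, where 53 of its 92 UMIs lay in 1 cell. Ms4a2 stood at 814 CPM (602 to 1077) at steady state, with 3 to 10 UMIs per cell. On AngII Ms4a2 had 7 UMIs in 4 cells, or 195 CPM (78.6 to 403), and the other 7 cells held none. Fcer1a had 1.78 times (1.24 to 2.57) the UMIs of Ms4a2 at steady state and 13.1 times (6.13 to 33.6) on AngII. Without the cell rich in Fcer1a the AngII ratio was 7.80 (3.07 to 25.4), so its interval still lay above that of steady state. With 1 library per condition, this difference between α and β chain was not tested over animals.

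The γ chain, Fcer1g, is shared with other Fc receptors. It stood at 3490 CPM in mast-like cells against 1310 in the other cells at steady state, and at 3100 against 2284 CPM on AngII. Of the 3 receptor chains it was thus the most abundant and the least confined to mast-like cells.

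Hdc, the histamine enzyme, stood at 1861 CPM (1533 to 2240) in mast-like cells at steady state. All 9 cells held it, at 3 to 46 UMIs, and 1 cell had 41.1% of the total. Its summed level did not separate from that of Fcer1a, with a ratio of 1.29 (0.964 to 1.72) and Hdc the higher in 4 of the 9 cells. Without the cell with the most member UMIs the ratio was 1.41 (1.04 to 1.93). Hdc was the higher in 4 of those 8 cells, and 1 of them held 46 of their 103 Hdc UMIs, so the order was not settled. On AngII Hdc stood at 698 CPM (452 to 1031), with 25 UMIs in 6 of 11 cells.

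From high to low the order of members was Mcpt4, Cma1, Cpa3, Tpsb2, Hdc, Fcer1a and Ms4a2 at steady state. Hdc and Fcer1a were not told apart over all cells there, and 1 cell held 46 of the 112 Hdc UMIs. On AngII it was Mcpt4 and Cma1 not told apart, then Cpa3, Tpsb2, Fcer1a, Hdc and Ms4a2. There Hdc had 0.272 times (0.167 to 0.427) the UMIs of Fcer1a, and 0.590 times (0.336 to 1.01) without the cell with the most, so that this step of the order rested on 1 cell. The proteases together took 92521 CPM (90107 to 94984) of mast-like RNA at steady state and 80064 CPM (77160 to 83049) on AngII.

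All 7 members were at least 4-fold higher in mast-like than in other cells at steady state, where 4.55% of the 11687 genes with at least 10 UMIs passed that fold. On AngII the 6 members with at least 10 UMIs passed it, against 4.86% of 14472 genes, and Ms4a2 with 9 UMIs in all was below the minimum. The smallest of these ratios was that of Hdc on AngII, 11.6 times (7.45 to 17.2), against 304 times (191 to 504) at steady state. For Mcpt4 the ratio was 12474 times (9130 to 17490) on AngII. The members other than Hdc had at most 3 UMIs each in other cells at steady state, and Fcer1a had 4 on AngII. They reached the minimum of 10 UMIs only through mast-like cells, so their passing was fixed in advance and is a description only.

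Over all cells of a library, the members other than Hdc were lower on AngII. Mcpt4 went from 563 to 58.9 CPM (0.105 times, 0.0971 to 0.113) and Cma1 from 426 to 60.9 (0.143 times, 0.132 to 0.154). Cpa3 went from 365 to 30.2 CPM (0.0827 times, 0.0747 to 0.0915), and Tpsb2 from 175 to 20.9 (0.120 times, 0.105 to 0.136). The receptor chain Fcer1a stood at 23.8 and 5.33 CPM, and Ms4a2 at 13.4 CPM and, with 9 UMIs in all, at 0.0372 times that (0.0161 to 0.0765). Hdc went the other way, from 36.7 to 61.6 CPM (1.68 times, 1.40 to 2.02). The 6 members without Hdc summed to 1565 and 177 CPM, a ratio of 0.113 (0.108 to 0.118). The share of mast-like cells moved in the same direction, 2.94% against 0.262%, as given above. With the gate of 2 markers the number of mast-like cells did not fall, with 9 from 3 animals and 11 from 2. With at least 3 markers it was 9 and 6, with at least 1000 genes 8 and 4, and over all barcodes 9 and 10. The direction of the number was thus not settled. All filtered cells went from 306 to 4198. Fewer mast-like cells in the tissue, fewer recovered by the library, and dilution by more cells of other classes cannot be told apart.

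Within mast-like cells the difference between libraries was smaller and turned with the gate. The 7 members summed to 96643 CPM (94175 to 99159) at steady state and to 83526 CPM (80560 to 86575) on AngII. In the 6 AngII cells with at least 3 markers they summed to 188813 CPM (182006 to 195809), with Mcpt4 at 64520 and Cma1 at 63220 CPM. The cell without any member held 16991 of the 35809 UMIs of the class and lowered the AngII level. Ms4a2 was below its steady state level of 814 CPM in both readings, at 195 CPM in all 11 and 390 CPM in the 6 cells, although the interval of the latter (143 to 849) overlapped that of steady state. Fcer1a was above its steady state level in both, at 2569 and 5854 CPM (4707 to 7195), but stood at 1262 CPM (897 to 1725) without the cell that held 53 of its 92 UMIs. Without cells passing a second gate it stood at 860 CPM (539 to 1301), against 1577 at steady state, so its direction was not settled. Hdc at 1561 CPM (1000.1 to 2323) in the 6 cells overlapped its steady state interval.

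Outside mast-like cells the members were close to absent at steady state. The 297 other cells held 7 UMIs of the 4 proteases (1.95 CPM, 0.784 to 4.02), each in a different cell, and no UMI of Fcer1a or Ms4a2, for which a count of 0 allows up to 0.836 CPM. On AngII the 4187 other cells held 210 protease UMIs (11.7 CPM, 10.2 to 13.4), namely 41 of Mcpt4, 94 of Cma1, 38 of Cpa3 and 37 of Tpsb2. Fcer1a had 4 UMIs and Ms4a2 2.

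This background was not even. T cell-like cells, which should lack these genes, held no UMI of the 6 members other than Hdc in either library. For the 284 AngII cells of that class, of 1127 median UMIs, a count of 0 allows up to 2.32 CPM of each gene and 1.06% of cells with a UMI of it, which is no limit on cells expressing it. Monocyte-like cells likewise held none, and 137 B cell-like cells held 2 Cma1 UMIs. Neutrophil-like cells held 111 protease UMIs (83.5 CPM, 68.7 to 100.6), all in 10 of 408 cells, and 1 cell of 525 UMIs had 34 of them, 6.48% of its RNA. Unassigned cells held 67 UMIs in 15 of 2196 cells (13.9 CPM, 10.8 to 17.7), and macrophage-like cells 19 UMIs in 15 of 722 cells (3.77 CPM, 2.27 to 5.89), with no more than 2 in a cell.

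The protease counts outside the class moved with depth. They stood at 106 CPM (89.6 to 125) in other AngII cells under 1000 UMIs, at 20.0 CPM in those from 1000 to below 5000 UMIs and at 1.01 CPM (0.551 to 1.69) in those of 5000 or more. At the same depth the summed levels of classes differed. The 116 T cell-like cells under 1000 UMIs, of 686.5 median UMIs, held none, which allows up to 36.8 CPM. The 141 neutrophil-like cells under 1000 UMIs, of 686 median UMIs, stood at 999.5 CPM (812 to 1217). Their 99 protease UMIs lay in 8 of the 141 cells (5.67%, 2.48 to 10.9), 34 of them in 1 cell. The share of T cell-like cells with a UMI was 0% (0 to 3.13), so the intervals of the shares overlapped.

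Within these cells the members came together. On AngII 14 cells outside the class held 3 or more of the 7 members, 8 neutrophil-like, 5 unassigned and 1 macrophage-like, and they held 71.9% of the protease UMIs outside mast-like cells. Their median depth was 847.5 UMIs, 9 of them were under 1000 UMIs, 9 held no mast gate marker and the others 1. Without them, 59 protease UMIs remained (3.29 CPM, 2.50 to 4.24). The 10 neutrophil-like cells with a protease UMI had 2 or 3 different neutrophil markers and a median of 9 neutrophil marker UMIs, against 23 over all neutrophil-like cells, with median depths of 782.5 and 1460.5 UMIs. Whether these were shallow mast cells, mixed droplets or cells with free RNA was not tested.

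**Figure D2:**
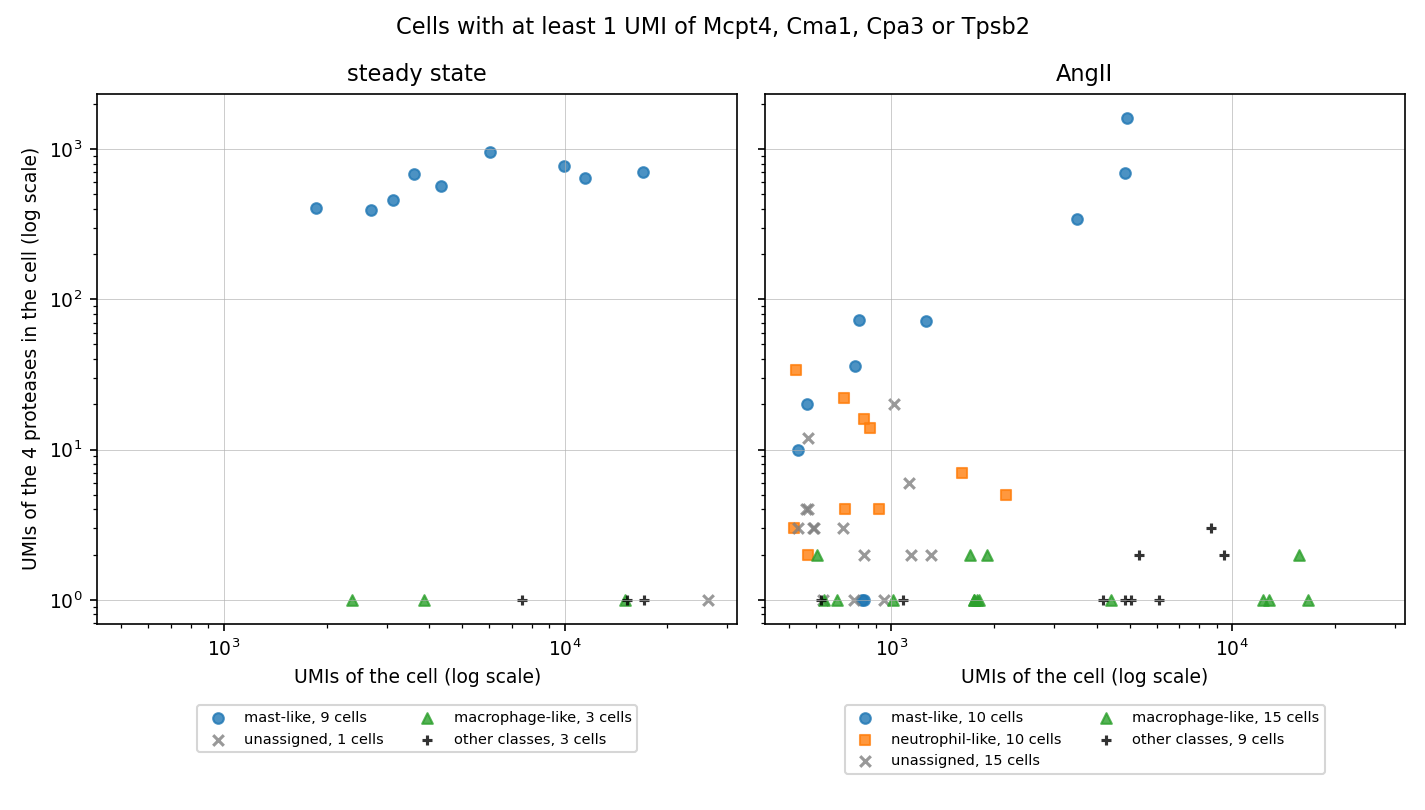
UMIs of Mcpt4, Cma1, Cpa3 and Tpsb2 together in each cell with at least 1 of them, against all UMIs of the cell, on logarithmic axes, steady state left and AngII right. Points are cells, with symbols for their class. Steady state shows 9 mast-like cells with 394 or more protease UMIs and 7 other cells at 1, whereas on AngII neutrophil-like and unassigned cells of low depth reach 34 and 20.

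The mix of members was compared as well. In mast-like AngII cells, Mcpt4 made 34.4% (32.6 to 36.1) and Cma1 33.8% (32.1 to 35.6) of the UMIs of the 6 members without Hdc. In the other AngII cells these shares were 19.0% (41 of 216 UMIs) and 43.5% (36.8 to 50.4). Without the mast-like cell richest in Mcpt4, the mast-like shares were 25.1% (22.8 to 27.6) and 40.3% (37.7 to 43.1), which overlapped the intervals of the other cells. Cpa3 made 17.0% in mast-like and 17.6% in other cells, and Tpsb2 11.5% (10.3 to 12.7) and 17.1% (12.4 to 22.8).

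A few classes of deep cells stood apart with 1 gene each. NK cell-like cells on AngII held 6 Cma1 UMIs in 5 of 19 cells (50.5 CPM, 18.5 to 110), with no UMI of any other member. Type-2 innate lymphoid cell-like cells held 5 Cpa3 UMIs in 2 of 21 cells (27.4 CPM, 8.89 to 63.9) and no other member. Median depths were 5720 and 8641 UMIs. Thinned to 1000 UMIs per cell, 5.88% of 17 NK cell-like cells and 0% of 19 type-2 innate lymphoid cell-like cells still held a member, so that little of these shares was left at that depth.

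**Figure D3:**
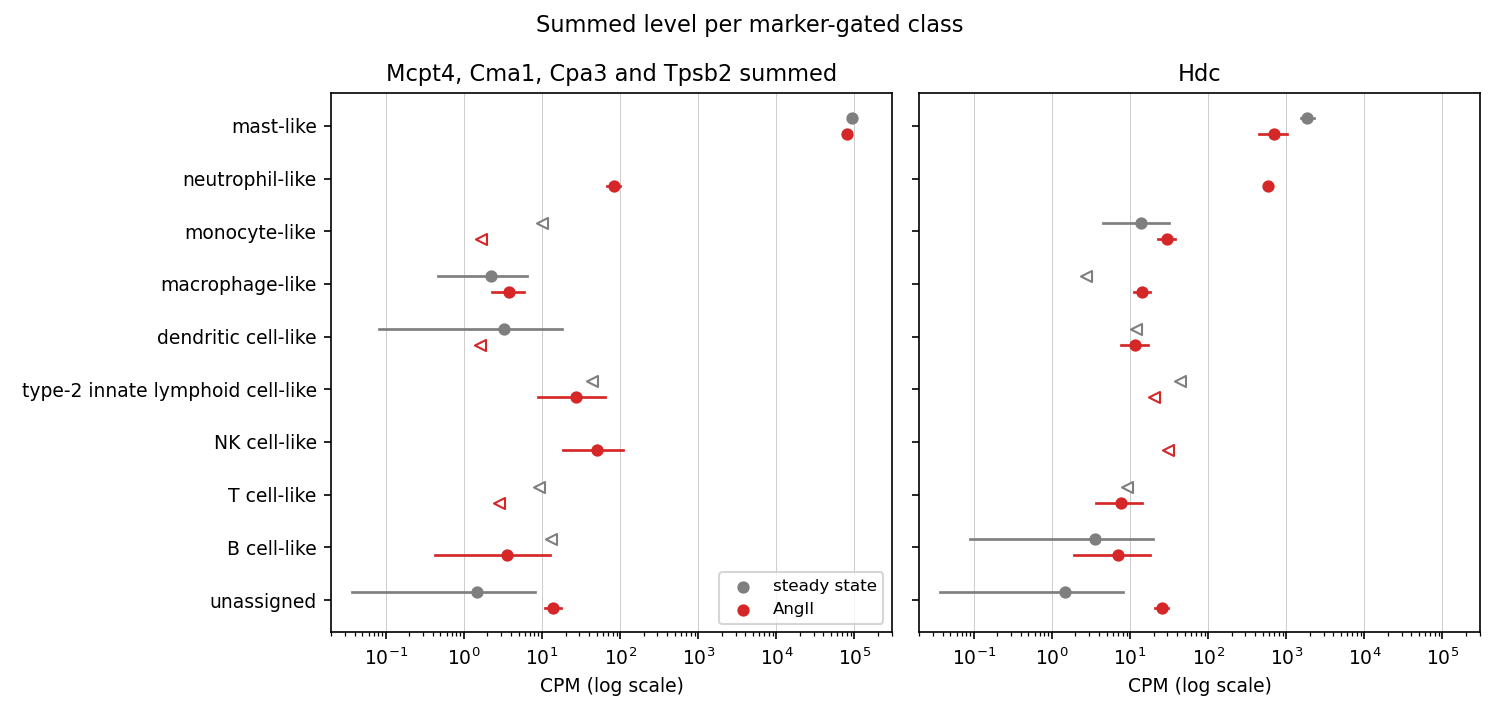
CPM on a logarithmic axis of the 4 proteases together (left) and of Hdc (right) in marker-gated classes of at least 10 cells and in mast-like cells, grey for steady state and red for AngII. Points are summed levels, lines exact 95% counting intervals, and open triangles the upper bound of that interval where no UMI was found. Mast-like cells lie at 92521 and 80064 CPM for the proteases, and neutrophil-like AngII cells reach 590 CPM of Hdc.

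Hdc was the member found mostly outside mast-like cells. On AngII 784 of its 1110 UMIs (70.6%) lay in neutrophil-like cells, at 590 CPM (549 to 633), and 2.25% lay in mast-like cells. At steady state 83.6% lay in mast-like cells. Of 408 neutrophil-like AngII cells 182 held Hdc (44.6%, 39.7 to 49.6), with a median of 2 and at most 29 UMIs, so no single cell made more than 3.70% of the class total. Among these 182 cells, 179 held no other member. Thinned to 1000 UMIs per cell, Hdc was found in 87 of 267 neutrophil-like cells (32.6%), in 4.62% of 195 monocyte-like cells, in 1.43% of 560 macrophage-like cells and in 0.595% of 168 T cell-like cells, the last taken as background.

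Levels per UMI gave the same order for these classes. Hdc stood at 29.8 CPM (23.1 to 38.0) in monocyte-like cells, 14.3 (11.2 to 18.0) in macrophage-like cells, 11.6 (7.67 to 16.9) in dendritic cell-like cells, 7.72 (3.70 to 14.2) in T cell-like cells and 7.07 (1.93 to 18.1) in B cell-like cells on AngII. The dendritic, T and B cell-like intervals overlapped each other. At steady state 4 of 5 neutrophil-like cells held 15 Hdc UMIs in all (306 CPM, 171 to 504), and the 113 macrophage-like cells held none, which allows up to 2.23 CPM. Neutrophil-like cells made 9.72% of AngII cells and 1.63% of steady state cells. Hdc was thus measured in neutrophil-like cells of both libraries, with the AngII level 1.93 times (1.16 to 3.47) that of 5 steady state cells.

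**Figure D4:**
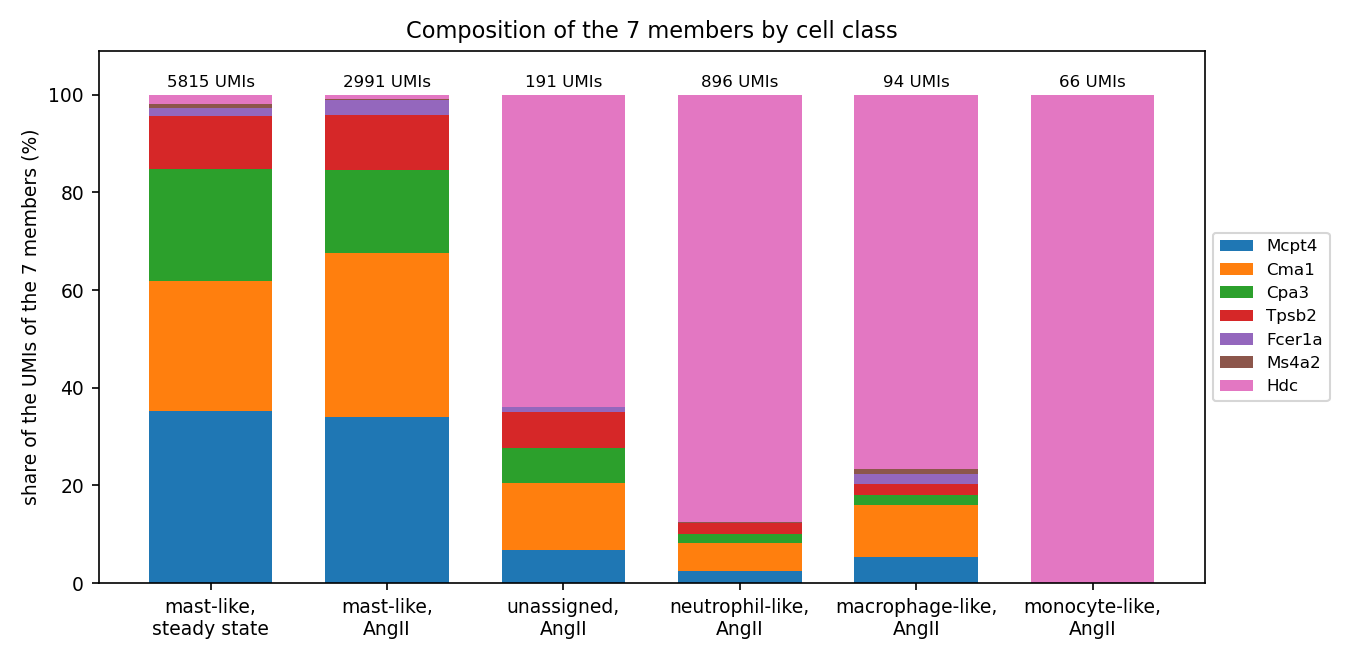
Share of each member, in percent, in the summed UMIs of the 7 members per class, with the number of UMIs above each bar. Proteases fill the mast-like bars (95.7% at steady state), and Hdc makes 87.5% in neutrophil-like and 100% in monocyte-like AngII cells.

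Other genes of the mast cell pathways were read against the same background shares of 4.55% and 4.86%. Of 10 other chymase- and tryptase-locus proteases 3 had enough UMIs at steady state and 2 on AngII. The tryptases Tpsg1 (449 CPM, 27 UMIs in 8 cells) and Prss34 (283 CPM, 17 UMIs in 2 cells) passed at steady state. Both had no UMI in other cells, so the 10-UMI minimum fixed their passing, and Prss34 is also a basophil gate marker. On AngII Tpsab1 (279 CPM, 10 UMIs against 3 in other cells, likewise fixed) and Gzmb (4 UMIs in 1 cell) passed. Mcpt1, Mcpt2 and Mcpt9, chymases of mucosal or uterine type, had 0 UMIs in both libraries. Their sequences, and those of Tpsab1, resemble those of Mcpt4 and Tpsb2, so reads common to such copies may have been dropped or misplaced in counting.

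Most genes of IgE receptor signalling had at least 1 UMI in mast-like cells but were not particular to them in level. Their UMIs lay mostly in other cells, as for Lyn with 15 in mast-like and 1026 in other cells at steady state. On AngII Lat, Plcg2, Gab2 and Vav1 had 0 UMIs in mast-like cells. Of 15 genes tested, only Lat2, an adaptor beneath FcεRI, passed at steady state, with 765 against 90.6 CPM (8.44 times, 6.06 to 11.5), and none on AngII, where Lat2 was at 3.33 times. The kinases Lyn and Syk stood at 249 and 116 CPM in mast-like cells and at 286 and 181 CPM in the others at steady state. The median ratio of the list was 1.36 at steady state and 1.22 on AngII, against 0.602 and 0 over all genes tested, of which 38.3% and 60.2% had no UMI in mast-like cells. With such genes set to the 3-UMI limit, the medians were 1.36 and 1.36 for the list against 1.81 and 4.99 for all genes, so that the order of list and background turned.

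Of 7 granule and amine storage genes, 4 passed at steady state and 3 on AngII, or 3 and 2 of 6 without Slc18a2, whose passing the gate itself favoured. Without it the median ratios were 4.02 and 3.60, which the 3-UMI limit left as they were. Slc18a2, the vesicular amine transporter and a gate marker, stood at 814 against 4.18 CPM and at 391 against 1.34 CPM. Serpinb1a, a protease inhibitor, stood at 2194 against 73.9 CPM and at 1340 against 26.2 CPM. Ndst2, which sulfates granule heparin, passed at steady state (13.3 times, 7.08 to 23.6) and stood at 3.63 times on AngII with 3 UMIs. Cd63 passed at steady state alone and Rab27a, with 4 UMIs, on AngII alone. Srgn, the proteoglycan core, was at 3241 against 875 CPM and did not pass.

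Of the histamine and serotonin genes, 1 of 4 passed at steady state and 0 of 3 on AngII when the gate marker Tph1, which passed in both, was left out. Their median ratios were 1.36 and 0, or 9.96 and 9.71 with the limit. Tph1, the first enzyme of serotonin synthesis and a gate marker, had 16 UMIs in 7 cells and 37 UMIs in 4 cells. Maob, which breaks down amines and was the gene that passed, stood at 233 against 2.23 CPM at steady state. It had 14 UMIs in mast-like and 8 in other cells, so the 10-UMI minimum fixed its passing. Hnmt, which inactivates histamine, had 0 UMIs in mast-like cells of either library, and a count of 0 allows up to 49.9 and 83.8 CPM.

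Of the growth and transcription factor genes, 3 of 6 passed at steady state and 1 of 6 on AngII without the gate markers Kit and Gata2, which passed in both. Their median ratios were 4.87 and 1.25, or 4.87 and 8.14 with the limit. Kit stood at 1679 and 894 CPM and Gata2 at 914 and 307 CPM in mast-like cells. Il1rl1, the IL-33 receptor, stood at 1546 CPM (26.8 times, 20.7 to 34.4) at steady state and 1703 CPM (71.9 times, 54.0 to 94.2) on AngII, and was found in 9 of 9 and 8 of 11 mast-like cells. Mitf and Tal1 passed at steady state and had 1 and 0 UMIs in mast-like cells on AngII.

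None of 6 eicosanoid genes passed in either library, and their median ratios were 0.578 and 0.507, or 0.999 and 1.67 with the limit. Hpgds, which makes prostaglandin D, was nearest, at 3.17 times (1.71 to 5.42) and 3.65 times (1.18 to 8.55). Ltc4s, which makes leukotriene C, had 0 UMIs in mast-like cells at steady state against 183 CPM in the others, at most 0.273 times by the limit. None of 3 other IgE-binding receptors passed, with median ratios of 0.281 and 0.395, both those of Lgals3, or 0.663 and 0.804 with the limit. In all of these lists no gene was at least 4-fold lower, where 1.57% and 0.926% of all genes were. For listed genes with 0 UMIs in mast-like cells this call was out of reach, since the 3-UMI limit stood at 49.9 and 83.8 CPM there.

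Over the 4198 AngII cells each protease followed the other 6 members with a Pearson r of 0.448 to 0.475 (log2 of 1 plus UMIs per 10000), Fcer1a with 0.307, Ms4a2 with 0.242 and Hdc with 0.0949. These are descriptions over cells of 1 library that share depth. Among genes that were neither members nor class markers, the most like the 7 members summed were Trem1 (r = 0.281), Csf1, H2-Q10, Slpi, Cd300lf, Il1b, Clec4e and Ptgs2 (0.234). Their UMIs lay in neutrophil-like more than in mast-like cells on AngII, as for Trem1 with 439 and 0 UMIs. With Hdc left out, a choice made after these values were seen, Il1rl1 came first (0.249), followed by Barx2 (0.215), Chst1, Atp2a3, Tmem158, Adora3, Pafah2 and Ifit3 (0.138). Each of these had more UMIs in other than in mast-like AngII cells. Barx2 had 51 against 1 and Ifit3 626 against 1. At steady state, over 306 cells, the correlation without Hdc gave Meis2 (0.932), Gpr141b, Smco4, Mfge8, Il1rl1, Tal1, Serpinb1a and Myb (0.597). Meis2 had 28 of its 32 UMIs in the 9 mast-like cells at steady state and 4 of 6 on AngII.

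The reporter transcript of the line, chosen for description after the data were seen, was found in 3 of the 9 mast-like cells at steady state (33.3%, 7.49 to 70.1), with 4 UMIs (66.5 CPM, 18.1 to 170.2). It was found in 90 of 113 macrophage-like cells (244 CPM) and in 0 of 49 B cell-like cells, which allows up to 10.7 CPM. On AngII 0 of the 11 mast-like cells held it, which allows up to 83.8 CPM, while 400 of 4187 other cells did (58.5 CPM). The mast-like intervals are wide, and a difference between conditions was not detectable at this depth.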

How the data were processed

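CD45-positive cells were enriched on beads and sorted by the authors, and each condition was run as 1 droplet library. The authors mapped reads with Cell Ranger 3.1.0 (per the submitters' processing notes) to GRCm38.p6 with the GENCODE M24 annotation and the eYFP sequence, and deposited raw UMI counts per gene and barcode. Whether free RNA or doublets were removed before deposit is not given in the sources used here. With 1 library per condition, cells were summed per library and class and no test was run.

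Barcodes with 300 to 6500 genes and at most 5% mitochondrial counts were kept. A cell joined the class of 13 whose marker list had the highest Poisson log-likelihood ratio over the library average, with at least 2 markers and a ratio of at least 3, and otherwise stayed unassigned. Doublets were left in. Genes with at least 10 UMIs were called at 4-fold, and a count of 0 was set to a limit of 3 UMIs. Shares were also taken after thinning to 1000 UMIs. The steps were tested on simulated counts. Named are the members, the genes of 7 pathway lists, the markers, and the 8 genes best correlated with the members among those with at least 30 UMIs. Members and lists were chosen with earlier results of these data known. Alternatives changed the filter, gate, depth, doublets and single cells. Sums and intervals came from pandas 2.3.3, SciPy 1.17.1 and NumPy 2.4.6 and figures from Matplotlib 3.10.9, run under Python 3.11.15. RefSeq (GRCm38.p6) gave the promoter sequences. Intervals and limits cover counting error only. The reporter, the steady state correlations and those without Hdc were added with the values in view.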

Additional observations from a re-analysis of the deposited data

How the results depend on the processing

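No paired analysis was possible because each condition had 1 library. Every called member stayed at least 4-fold higher with a minimum of 30 UMIs or 3 markers. At steady state this was fixed by the minimum for the members other than Hdc, and on AngII for Fcer1a, with 4 UMIs in other cells. Of 238 values of single genes under an alternative, 97 moved beyond their counting interval.

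The mast-like class on AngII moved with the gate. Its 11 cells became 4 with at least 1000 genes, 6 with 3 markers, 7 by most distinct markers, 7 without cells passing a second gate and 5 with 1000 UMIs or more, as needed for thinning. The summed members, 83526 CPM there, became 91610, 188813, 183115, 33563 and 131000 CPM in the same order, 42603 without the cell with the most UMIs, and 158944 without the cell that held no member, an alternative added later, with the values in view. A gate on 2 of the other 6 members, run for 1 member at a time, gave more cells, 25 to 30, with Mcpt4 at 21478 CPM in 28. So the members in mast-like cells stood below or above steady state according to the gate. At steady state the 96643 CPM became 92608 with 1000 genes, 111803 without cells passing a second gate, 136444 thinned and 89228 without the top cell.

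The members without Hdc in other AngII cells, 12.0 CPM, became 16.6 over all barcodes, 1.94 with 1000 genes, 16.8 with 3 markers, 16.3 by most distinct markers, 18.0 thinned and 10.1 without the top cell. The ratio of AngII to steady state over all cells, 0.149 for 7 members, became 0.102 thinned and 0.0905 as a mean of cells, and 0.113 for the 6 without Hdc became 0.0759 and 0.0684.

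Hdc in neutrophil-like AngII cells, 590 CPM, became 665 by most distinct markers, 739 without cells passing a second gate and 730 thinned, these settings being added with the values in view. The share of these cells with Hdc, 32.6% thinned to 1000 UMIs, was 17.4% thinned to 500. Ms4a2 on AngII rests on 9 UMIs over all cells.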
